A study of Mus musculus with 24 samples.

Results

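The genes described here are 37 mouse genes of the hypoxia response and of glycolysis, read out of 25190 genes listed for cochlear organoids and 18440 listed for inner ear tissue. They comprise both oxygen-regulated subunits of the hypoxia-inducible factor, 15 other hypoxia-inducible factor (HIF) targets, 3 transporters, 2 regulators of phosphofructokinase and 15 glycolytic enzymes. The genes were selected on measured values of these same libraries, by name, with the changes under RBM25 knockdown already known. The values of knockdown organoids against control organoids are therefore given as a description, with no test. All 37 genes had a row in both tables, 36 of them under the symbol used here and Ero1l under the newer symbol Ero1a, and all 37 passed the filter on low counts in both.

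HIF is a pair of proteins in which an oxygen-regulated alpha subunit joins a constant partner. In oxygen, prolyl hydroxylases such as Egln1 and Egln3 mark the alpha subunits Hif1a and Epas1 for destruction, so that the protein, far more than the RNA, follows oxygen. Stabilised HIF binds a short DNA core and raises genes that bring glucose in, split it to lactate, export acid and slow mitochondrial respiration. The cochlea uses much energy for ion transport, and much of its sensory epithelium has no capillaries of its own, so glucose and lactate handling matters there.

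Messenger RNA was measured by bulk sequencing in 24 libraries. The organoids, of wild-type genotype, were grown from cochlear epithelium of newborn mice, expanded and then differentiated, and had 4 groups of 3 libraries each: lentiviral RBM25 knockdown with TNF-α, RBM25 knockdown alone, TNF-α alone, and untreated control. RBM25 is an RNA-binding splicing factor, and TNF-α is an inflammatory cytokine, called TNF below. The inner ear tissue, with the bone removed, came from untreated wild-type male C57BL6/J mice of 3, 11 and 20 months, with 4 mice at each age. The titles call the knockdown a knockout. The control vector, the TNF dose and time, and whether the 3 organoid libraries of a group were separate cultures could not be read from the labels, so p-values there measure only the spread between these libraries, which may be technical.

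In the organoid libraries the total was 33802411 to 37048422 counts and in the tissue libraries 30599012 to 38451292 counts. Values below are CPM, which are counts relative to the scaled library size, unless another unit is named, in the order of the replicates. Rbm25 had 103, 122 and 108 CPM with knockdown and TNF, 96.9, 94.2 and 92.7 CPM with knockdown, 150.0, 163 and 173 CPM with TNF, and 142, 148 and 144 CPM in control organoids. It was thus lower in every knockdown library, by 0.61 on the log2 scale without TNF (SE 0.06, adjusted p = 1.01e-07) and by 0.55 with it (SE 0.06, adjusted p = 4.61e-07), so that the depletion was partial. All 8 hair cell and all 8 supporting cell markers were listed in the organoids, with summed levels of 110.0 to 466 CPM for hair cell markers and 2600.0 to 7100.0 CPM for supporting cell markers over the 12 libraries. The supporting cell marker Hes5 was at 0 in control organoids.

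Libraries differed within organoid groups, and TNF replicate 1 stood apart from the other TNF libraries. TNF replicate 1 had a summed level of 8 bone markers of 63.3 CPM, against 1.09 and 7.26 CPM in the other TNF libraries, and of 11 mural cell markers of 64.9 CPM, against 20.8 and 25.9 CPM. It was the highest of the TNF libraries for 30 of the 37 genes, while 39.1% of all genes tested were highest there. Counts of the 37 genes called in comparisons that use organoids with TNF alone are therefore also given without TNF replicate 1. So are some values of single genes, while the other single-gene values include it. Similarly, knockdown replicate 1 was the highest knockdown library for 30 of the 37 genes (34.1% of all genes), and replicate 2 of knockdown with TNF was the highest of its group for 31 (38.4% of all genes). Bone marker sums differed in these groups too. They were 29.7 CPM in knockdown replicate 1, against 87.8 and 97.8 CPM in the other knockdown libraries. In replicate 3 of knockdown with TNF the sum was 62.8 CPM, against 189 and 260 CPM. In control organoids no library dominated, with 14, 6 and 17 of the 37 genes highest in replicates 1, 2 and 3 (33.9%, 30.3% and 35.8% of all genes).

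Promoter sequence was at hand for 33 of the 37 genes, as 47 windows of 300 bases around RefSeq transcription starts of GRCm38.p6. The HIF-binding core was searched as ACGTG or GCGTG on both strands, with CACGTG counted on each. It stood in 39 of the 47 windows (83.0%), against 43.8% of all 32851 windows of mouse genes. Among windows of at least 55% G and C the shares were 89.5% and 63.8%. For the stricter ACGTG they were 59.6% of these windows and 19.6% of all windows. The glycolytic enzymes held the core in 20 of 26 windows (76.9%) and the other HIF targets in 13 of 15 (86.7%). Many of these genes became known as HIF targets through such sites, so the shares are a description.

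The stretches before the start are shown for a gene with the largest fold change (Car9), for one that also changed with age (P4ha1), for enzymes that were higher in knockdown organoids (Ldha, Pgk1), and for one that was lower there (Hk2). Each runs 5′ to 3′ on the strand of its gene and ends at the base before the start, with the core in capitals. Car9 is at chr4:43506996-43507025 (+), P4ha1 at chr10:59323266-59323295 (+), Ldha at chr7:46845654-46845803 (+), Pgk1 at chrX:106186950-106187099 (+) and Hk2 at chr6:82774455-82774604 (-).
Car9: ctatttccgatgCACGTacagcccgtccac
P4ha1: ggtgtgacagagcgCACGTagcgagggctg
Ldha: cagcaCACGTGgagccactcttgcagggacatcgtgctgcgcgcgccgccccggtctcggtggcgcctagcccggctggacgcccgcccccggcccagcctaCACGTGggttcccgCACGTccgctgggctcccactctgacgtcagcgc
Pgk1: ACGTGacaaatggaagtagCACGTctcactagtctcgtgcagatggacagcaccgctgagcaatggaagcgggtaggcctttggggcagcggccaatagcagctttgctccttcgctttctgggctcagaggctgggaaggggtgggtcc
Hk2: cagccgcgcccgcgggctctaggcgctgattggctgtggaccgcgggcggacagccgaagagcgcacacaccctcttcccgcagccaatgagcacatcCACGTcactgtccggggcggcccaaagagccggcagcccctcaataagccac
The core thus stood within the stretch shown both in genes that were higher in knockdown organoids and in Hk2, which was lower. All genes shown hold a core. The stretches are 30 bases long for Car9 and P4ha1 and 150 bases for the other genes shown. For Ldha the stretch shown holds 5 cores, and that before another of its starts, at chr7:46846932-46847081, holds 1. The 150 bases before the start held 0 cores in Tpi1, Gpi1, Egln3, Mgarp and Vegfa, which were also higher in knockdown organoids. All 30 bases shown for Car9 lie in annotated exons.

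The question put to the organoids was how the loss of RBM25 changes them with and without TNF. In knockdown against control organoids, 31 of the 37 genes passed the threshold of an adjusted p under 0.05 upward and 2 downward, in a comparison in which 52.6% of all genes tested passed. Because the genes were chosen on this contrast, nothing is read from that count. Knockdown with TNF against TNF uses none of those libraries. Its values may have been known when the genes were chosen, so its p-values are no independent support. There 30 genes rose, 2 fell and 5 did not pass, in a comparison in which 52.3% of all genes tested passed, 4035 upward and 4279 downward. The median log2 fold change of the 37 genes was 0.78, against -0.01 for all genes tested. Without TNF replicate 1, 30 rose and 3 fell, where 3865 of all 15888 genes tested rose and 3999 fell.

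Genes that act on acid and on mitochondria had the largest fold changes of knockdown against control organoids. Car9 encodes a cell-surface carbonic anhydrase, an enzyme of acid balance, and is among the most hypoxia-specific HIF targets. It had 1192, 1377 and 807 counts with knockdown and TNF and 3507, 3282 and 2558 counts with knockdown. The values were 70, 31 and 5 counts with TNF and 25, 31 and 24 counts in control organoids. Every knockdown library was far above every other library. The log2 fold change was 4.94, SE 0.44 with TNF (adjusted p = 1.76e-05) and 6.79, SE 0.45 without it. Overlap of exons with the opposite-strand gene Gm12454 covers 214 of the 2304 exonic bases of Car9, and the libraries do not mark strand.

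The other 3 genes of the group, described after their values were seen, were likewise higher in every knockdown library than in any other. Ndufa4l2, which lowers complex I activity in hypoxia, had 131, 159 and 82 counts with knockdown and TNF and 284, 153 and 139 counts with knockdown, against 60, 5 and 1 counts with TNF and 3, 4 and 4 counts in control organoids. Cox4i2, the hypoxic isoform of a cytochrome oxidase subunit, had 409, 548 and 257 counts with knockdown and TNF and 570.0, 381 and 307 counts with knockdown, against 169, 2 and 8 counts with TNF and 10, 11 and 12 counts in control organoids. In both genes TNF replicate 1 held most of the TNF counts. Their rise in knockdown with TNF against TNF was called (log2 fold change 2.45 and 2.72, adjusted p = 0.0322 and 0.0361). These calls were not kept without TNF replicate 2 (adjusted p = 0.0833 for Ndufa4l2 and 0.0654 for Cox4i2), nor without replicate 1 (0.0695 and 0.0743) or 2 (0.0836 and 0.0913) of knockdown with TNF, nor, for Cox4i2, without TNF replicate 3 (0.0847). Nor did they pass when only the libraries compared were fitted (0.122 for Ndufa4l2 and 0.154 for Cox4i2). Without TNF replicate 1, the log2 fold changes were 5.26, SE 0.53 and 6.25, SE 0.54 (adjusted p = 3.56e-07 and 3.24e-06). Mgarp, a mitochondrial protein known as a HIF target, had 84, 99 and 49 counts with knockdown and TNF. It had 275, 162 and 196 counts with knockdown, 30, 6 and 4 with TNF and 9, 3 and 7 in control organoids. In knockdown with TNF against TNF it rose by a log2 fold change of 2.48, SE 0.53 (adjusted p = 0.00169). TNF replicate 1 held most of its TNF counts too. Mgarp and Ndufa4l2 passed the filter on low counts only through the knockdown groups, so their rise is no independent support.

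Markers of other cell types moved with the knockdown. The sum of all 10 endothelial markers was 33.6 to 48.6 CPM with knockdown and TNF and 39.8 to 53.4 CPM with knockdown, against 15.5 to 21.0 CPM with TNF and 17.3 to 20.1 CPM in control organoids. Mural cells express Ndufa4l2 and Cox4i2 in tissue, and 11 of their 12 markers were listed. Their sum was 37.8 to 42.6 CPM with knockdown and TNF and 35.8 to 46.2 CPM with knockdown, against 20.8 to 64.9 CPM with TNF and 17.0 to 17.8 CPM in control organoids, so TNF replicate 1 exceeded the knockdown libraries. Of the endothelial markers, Tie1 was at 0 in both knockdown groups, and Cldn5 was at 0 in the other groups and in knockdown with TNF. Sums of neuron markers (62.2 to 83.6 and 71.4 to 106 CPM against 38.0 to 43.3 and 30.9 to 33.5 CPM, in the same order of groups) and of hair cell markers (211 to 277 and 320.0 to 466 CPM against 110.0 to 147 and 141 to 154 CPM) were also higher. The sum of 8 bone markers was 62.8 to 260.0 CPM with knockdown and TNF and 29.7 to 97.8 CPM with knockdown, against 1.09 to 63.3 CPM with TNF and 15.5 to 17.7 CPM in control organoids, and Sost was at 0 in all groups but knockdown with TNF. The 6 of 8 mucosal markers that were listed summed to 23.2 to 31.6 CPM with knockdown and TNF and 40.7 to 47.1 CPM with knockdown, against 5.42 to 7.12 CPM with TNF and 7.34 to 7.36 CPM in control organoids, with Bpifb1 and Muc5b at 0 in all groups but TNF. The 8 of 10 brain markers that were listed summed to 176 to 218 CPM with knockdown and TNF and 245 to 256 CPM with knockdown, against 91.6 to 113 CPM with TNF and 88.6 to 95.9 CPM in control organoids, with Pcp2 at 0 with knockdown and Mog at 0 with TNF and in control organoids. The 8 fibroblast markers were lower, with sums of 586 to 795 CPM with knockdown and TNF and 784 to 906 CPM with knockdown, against 1040.0 to 1360.0 CPM with TNF and 1480.0 to 1510.0 CPM in control organoids. The part of these shifts in the results was not tested. In bulk samples, more cells of a type and more RNA per cell cannot be told apart.

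**Figure D1:**
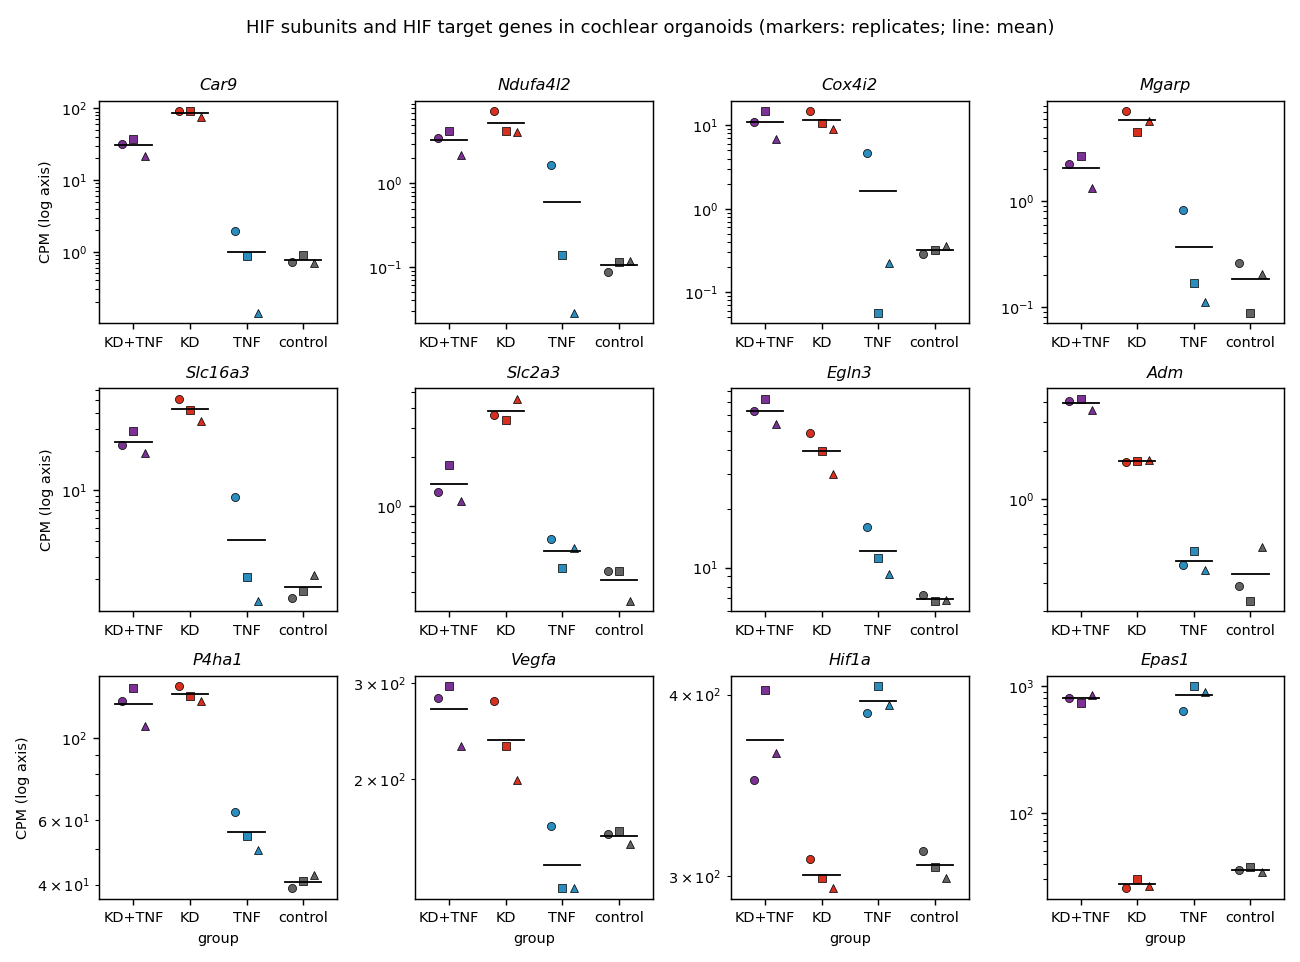
CPM on a log axis in each of the 12 organoid libraries for both HIF alpha subunits and 10 other genes; markers are replicates and lines are group means. The 6 knockdown libraries stand above the other 6 for Car9, Egln3, P4ha1 and Adm, Epas1 is high in the 6 libraries with TNF, and TNF replicate 1 (circle) lies above the other TNF libraries for Ndufa4l2, Cox4i2 and Slc16a3.

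Transporters rose as well. Slc2a3, the high-affinity glucose transporter GLUT3, had 1.23, 1.78 and 1.08 CPM with knockdown and TNF, 3.62, 3.34 and 4.54 CPM with knockdown, 0.635, 0.419 and 0.556 CPM with TNF and 0.402, 0.404 and 0.265 CPM in control organoids. It was highest with knockdown alone, and its log2 fold change in knockdown with TNF against TNF was 1.34, SE 0.29 (adjusted p = 0.000744). Slc2a1, the widespread glucose transporter GLUT1, had 95.7, 100.5 and 92.8 CPM with knockdown and TNF, 127, 112 and 99.3 CPM with knockdown, 80.9, 86.5 and 78.3 CPM with TNF and 85.1, 85.8 and 87 CPM in control organoids. Its rise with TNF present was small, at 0.23, SE 0.07 on the log2 scale (adjusted p = 0.00811). Slc16a3, the lactate exporter MCT4, was named after its values were seen. It had 22.2, 28.9 and 19.3 CPM with knockdown and TNF, 51.4, 41.9 and 34.4 CPM with knockdown, 8.75, 2.1 and 1.36 CPM with TNF and 1.43, 1.62 and 2.15 CPM in control organoids. It rose with knockdown in the presence of TNF (2.52, SE 0.55, adjusted p = 0.00455), and by 3.76, SE 0.30 without TNF replicate 1. Fitted on only the libraries compared, it did not pass (adjusted p = 0.0503).

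Glycolytic enzymes rose by smaller factors than these. With TNF present, 12 of the 15 rose with knockdown, Hk1 and Hk2 fell and Pfkm did not pass, where 52.3% of all genes tested passed. The median log2 fold change of the 15 enzymes there was 0.69. In knockdown against control organoids, on which the genes were chosen, the median was 1.06. Pgam1, the phosphoglycerate mutase, had 169, 177 and 155 CPM with knockdown and TNF and 207, 179 and 181 CPM with knockdown, against 89.8, 78.7 and 77.3 CPM with TNF and 70.9, 69.2 and 77 CPM in control organoids. Its log2 fold change was 1.03, SE 0.07 with TNF (adjusted p = 4.21e-09) and 1.39, SE 0.07 without it. Every knockdown library was above every library without the knockdown.

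Pfkl, the liver-type phosphofructokinase that catalyses the committed step of glycolysis, had 338, 364 and 297 CPM with knockdown and TNF and 344, 304 and 279.5 CPM with knockdown, against 159, 155 and 141 CPM with TNF and 106, 98.6 and 105 CPM in control organoids. The difference was 1.13, SE 0.08 on the log2 scale with TNF (adjusted p = 4.68e-08) and 1.58, SE 0.08 without it. Pkm, the pyruvate kinase, had 1428, 1481 and 1338 CPM with knockdown and TNF and 1529, 1442 and 1433 CPM with knockdown, against 883, 797 and 794 CPM with TNF and 809, 795 and 809.8 CPM in control organoids. The rise was 0.78, SE 0.06 with TNF (adjusted p = 1.74e-09) and 0.87, SE 0.06 without it. Between TNF and control organoids the Pkm values overlapped.

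Ldha, the lactate dehydrogenase subunit that turns pyruvate into lactate, had 645, 727 and 591 CPM with knockdown and TNF and 705, 648 and 597 CPM with knockdown, against 387, 307 and 289 CPM with TNF and 261, 258 and 262 CPM in control organoids. It was higher in every knockdown library, by 1.00, SE 0.11 on the log2 scale with TNF (adjusted p = 6.20e-06) and 1.32, SE 0.11 without it. Gapdh, the glyceraldehyde-3-phosphate dehydrogenase often used as a reference gene, had 151, 161 and 144 CPM with knockdown and TNF, 138, 133 and 132 CPM with knockdown, 115, 116 and 109 CPM with TNF and 78.6, 74.7 and 76.5 CPM in control organoids. Its 4 groups did not overlap, and its log2 fold change was 0.42, SE 0.05 with TNF (adjusted p = 7.44e-07) and 0.81, SE 0.05 without it. The counts of Gapdh are uncertain, because 71 other annotated genes match most of its transcript at 95% identity or more, and its deposited level of 42.8 ± 1.14 FPKM in control organoids (SD, n = 3) was below that of Aldoa, at 184 ± 2.98 FPKM. Eno1 with 3 such copies, Pgk1 and Ldha with 2 each and Pkm with 1 carry the same doubt to a lesser extent.

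Hexokinases went the other way. Hk2, the inducible hexokinase, had 145, 139 and 156 CPM with knockdown and TNF and 188, 171 and 142 CPM with knockdown, against 299, 294 and 268 CPM with TNF and 268, 274 and 275 CPM in control organoids. Every knockdown library was below every other library, although Hk2 is counted among the HIF targets. It fell by 0.97 on the log2 scale in knockdown with TNF against TNF (SE 0.08, adjusted p = 2.52e-07), and the value without TNF was -0.71, SE 0.08. Hk1, the constitutive hexokinase, had 118, 116 and 114 CPM with knockdown and TNF, 146, 144 and 133 CPM with knockdown, 129, 124 and 129 CPM with TNF and 157, 153 and 160.2 CPM in control organoids. It fell by 0.14 with knockdown in the presence of TNF (SE 0.05, adjusted p = 0.0176), a call not kept without replicate 3 of knockdown with TNF (adjusted p = 0.0609). The call of Hk1 was also lost when only the libraries compared were fitted (adjusted p = 0.0532). By limma on log2(FPKM + 1) or log2(FPKM + 0.1) it was lost too (adjusted p = 0.128 for each).

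**Figure D2:**
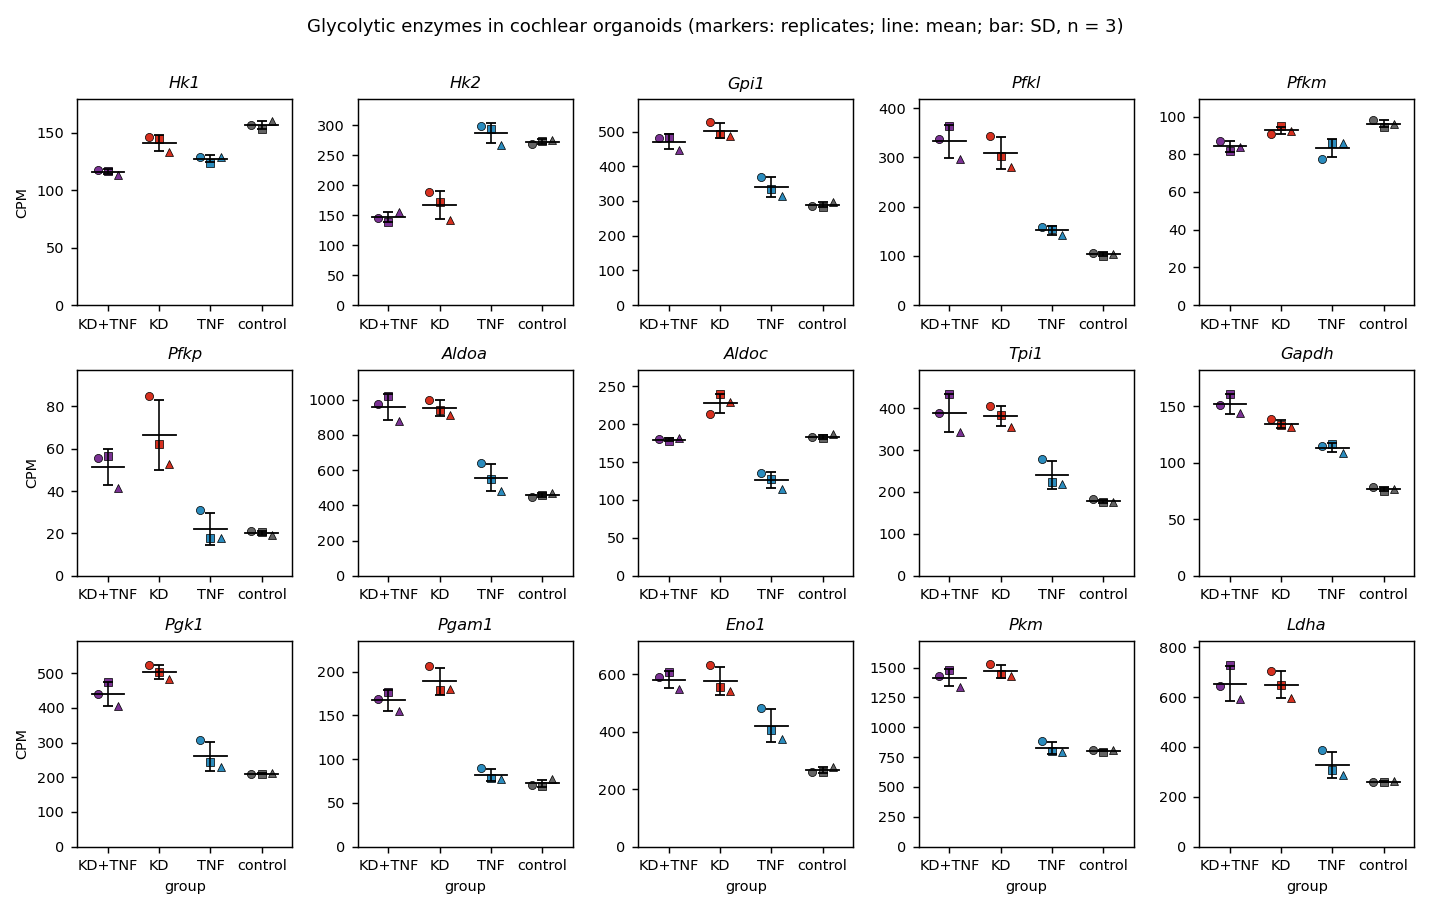
CPM in each of the 12 organoid libraries for the 15 glycolytic enzymes, with group means as lines and SD as bars (n = 3 per group). In 11 panels all 6 knockdown libraries lie above the other 6, in that of Hk2 they lie below, and in that of Aldoc the libraries with knockdown and TNF lie at the control level.

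Pfkfb3 and Pfkfb4 make and remove the activator of phosphofructokinase. Pfkfb3 had 13.4, 14.4 and 10.9 CPM with knockdown and TNF, 23.1, 17.9 and 16.1 CPM with knockdown, 10.6, 9.14 and 9.29 CPM with TNF and 4.65, 4.13 and 5.06 CPM in control organoids. Its level was higher with either treatment alone than in control organoids, at 2.04, SE 0.14 on the log2 scale for knockdown and 1.07, SE 0.14 for TNF (adjusted p = 7.53e-06). With TNF present, its knockdown difference of 0.41, SE 0.13 (adjusted p = 0.0154) was not kept without TNF replicate 2 or 3 or without replicate 1 or 2 of knockdown with TNF. Pfkfb4 was 0.34, SE 0.15 in knockdown with TNF against TNF and did not pass (adjusted p = 0.0602).

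The hydroxylases that mark HIF for destruction are themselves HIF targets. Egln3 was listed at 63.2, 73 and 54.1 CPM with knockdown and TNF and 48.5, 39.6 and 30.0 CPM with knockdown, against 16, 11.1 and 9.23 CPM with TNF and 7.2, 6.76 and 6.86 CPM in control organoids, with a log2 fold change of 2.39, SE 0.23 in the presence of TNF (adjusted p = 2.18e-05). Egln1 had 86.4, 84.4 and 81.6 CPM with knockdown and TNF and 108, 103 and 99.3 CPM with knockdown, against 59.3, 56.2 and 52.5 CPM with TNF and 61.2, 62.6 and 61.5 CPM in control organoids. Its difference was 0.59, SE 0.05 with TNF (adjusted p = 2.62e-08) and 0.74, SE 0.05 without it. Both genes were higher in each knockdown library than in any library without it.

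Adm, the vasodilator adrenomedullin, had 4.07, 4.22 and 3.56 CPM with knockdown and TNF and 1.69, 1.73 and 1.74 CPM with knockdown, against 0.386, 0.475 and 0.361 CPM with TNF and 0.287, 0.231 and 0.5 CPM in control organoids. It was low throughout and highest with both treatments, with a log2 fold change of 3.26, SE 0.27 for knockdown in the presence of TNF (adjusted p = 1.02e-08). Vegfa, the main vascular growth factor, had 282, 296 and 230.2 CPM with knockdown and TNF and 279, 229.6 and 199 CPM with knockdown, against 164, 126 and 126 CPM with TNF and 158, 161 and 152 CPM in control organoids. Its rise was 0.96, SE 0.15 with TNF (adjusted p = 0.000551).

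Stress genes rose to different extents. Ddit4, which restrains growth signalling through mTOR, had 84.3, 88.5 and 82.3 CPM with knockdown and TNF and 94.8, 84.3 and 86.5 CPM with knockdown, against 46.4, 42.1 and 42 CPM with TNF and 52.3, 52.1 and 49.2 CPM in control organoids. Its log2 fold change with TNF was 0.97, SE 0.06 (adjusted p = 1.43e-10), the smallest p of the 37 genes in that comparison. Pdk1, a kinase that inhibits pyruvate dehydrogenase, had 96.7, 105 and 88 CPM with knockdown and TNF and 144, 125 and 115 CPM with knockdown. The values were 82.3, 80.5 and 77.3 CPM with TNF and 79.3, 74.7 and 77.6 CPM in control organoids. With TNF present it rose by only 0.27, SE 0.07 (adjusted p = 0.00551). The mitophagy receptor Bnip3 and Ankrd37 rose by 0.49 and 2.09 in the same comparison (adjusted p = 0.00488 and 8.01e-07).

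Of the matrix and folding genes, the collagen prolyl hydroxylases P4ha1 and P4ha2 rose with knockdown in the presence of TNF by 1.16 and 1.50 on the log2 scale (adjusted p = 1.28e-07 and 0.000203). Ero1l, an oxidase of protein folding, was 0.00, SE 0.09 there and did not pass (adjusted p = 0.974).

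The RNA of both alpha subunits was measured too. Hif1a had 349, 403 and 364 CPM with knockdown and TNF, 308, 299 and 294 CPM with knockdown, 389, 405 and 394 CPM with TNF and 312, 304 and 299 CPM in control organoids. Epas1, which encodes HIF-2α, had 809, 735 and 854 CPM with knockdown and TNF, 25.5, 30.3 and 26.8 CPM with knockdown, 632, 999.8 and 907 CPM with TNF and 35.5, 37.5 and 34.3 CPM in control organoids. Both were high where TNF was given. In knockdown with TNF against TNF the log2 fold change was -0.09, SE 0.05 for Hif1a and -0.08, SE 0.14 for Epas1 (adjusted p = 0.157 and 0.668), and neither passed. In knockdown against control organoids it was -0.02, SE 0.05 for Hif1a and -0.38, SE 0.16 for Epas1, and every knockdown library had less Epas1 than every control library.

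TNF raised Epas1 more than any other of the 37 genes. Its log2 fold change was 4.56, SE 0.17 without knockdown (adjusted p = 1.04e-08) and 4.86, SE 0.17 with it (adjusted p = 8.30e-09). Without TNF replicate 1, which had the lowest Epas1 of the TNF libraries, the first value was 4.74, SE 0.08. Per transcript length, Epas1 made up 66.2% ± 3.19 (SD, n = 3) of the summed FPKM of Hif1a and Epas1 with knockdown and TNF and 65.6% ± 5.10 with TNF, against 7.74% ± 0.727 with knockdown and 9.69% ± 0.391 in control organoids. FPKM is the fragment count relative to transcript length and library size, and these shares come from the authors' deposited values. Hif1a rose with TNF by 0.38, SE 0.05 without knockdown (adjusted p = 7.27e-06) and 0.31, SE 0.05 with it (adjusted p = 6.85e-05).

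In TNF against control organoids, 17 of the 37 genes rose, 6 fell and 14 did not pass, in a comparison in which 47.5% of all genes tested passed. The median log2 fold change was 0.34, against -0.02 for all genes tested. Of the glycolytic enzymes 9 rose and 3 fell, and of the 15 other HIF targets 5 rose and 2 fell. Without TNF replicate 1, 12 of the 37 rose and 5 fell, and the median was 0.17. Of 15888 genes tested, 3267 rose and 3541 fell in that refit, so the share of the 37 called was near that of all genes. Among the enzymes 7 then rose and 3 fell, and among the other targets 2 rose and 2 fell. Adjusted p-values come from edgeR's quasi-likelihood test throughout. The rises of Bnip3, Egln3, Ldha, P4ha2 and Pgam1 and the fall of Pfkfb4 were not kept without that library, while those of Epas1, Hif1a, Pfkfb3, Gapdh, Eno1 and Pfkl were. This comparison shares its control libraries with the one on which the genes were chosen.

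Among the enzymes that moved with TNF, Gapdh rose by 0.56, SE 0.05 on the log2 scale (adjusted p = 2.38e-08). Eno1, the alpha enolase, had 592, 608 and 548 CPM with knockdown and TNF, 633, 555 and 541 CPM with knockdown, 484, 408 and 374 CPM with TNF and 258, 260.3 and 278 CPM in control organoids, and rose with TNF alone by 0.67, SE 0.08 (adjusted p = 1.01e-05). Aldoc, the brain-type aldolase, had 179.9, 178 and 181 CPM with knockdown and TNF, 214, 239 and 229 CPM with knockdown, 136, 128 and 114 CPM with TNF and 183, 181 and 187 CPM in control organoids. It fell with TNF, by 0.54 without the knockdown (SE 0.06, adjusted p = 2.08e-07) and by 0.34 with it (SE 0.05, adjusted p = 5.54e-05). Hk1 fell likewise, by 0.30 and 0.29 (adjusted p = 2.36e-05 and 4.33e-05). The summed level of 8 supporting cell markers moved with TNF too, at 3010.0 to 3260.0 CPM with knockdown and TNF, 5920.0 to 6110.0 CPM with knockdown, 2600.0 to 3270.0 CPM with TNF and 6750.0 to 7100.0 CPM in control organoids, and its part in these values was not tested.

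In knockdown with TNF against knockdown, 5 of the 37 genes rose and 11 fell, in a comparison in which 44.8% of all genes tested passed. The median log2 fold change was -0.14. Besides Epas1 and Hif1a, the risers were Adm (1.20, SE 0.23, adjusted p = 0.000304), Egln3 (0.69, SE 0.21, adjusted p = 0.0263) and Gapdh (0.18, SE 0.05, adjusted p = 0.0054). The call of Egln3 was not kept without replicate 1 or 2 of knockdown with TNF or replicate 2 or 3 of knockdown. Among those that fell, the log2 fold change was -1.51, SE 0.29 for Car9 (adjusted p = 0.00268), -1.49, SE 0.25 for Slc2a3 (adjusted p = 9.18e-05), -0.41, SE 0.07 for Pdk1 (adjusted p = 0.000214) and -0.29, SE 0.05 for Egln1 (adjusted p = 0.000105). The knockdown libraries used here were also part of the comparison that chose the genes.

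**Figure D3:**
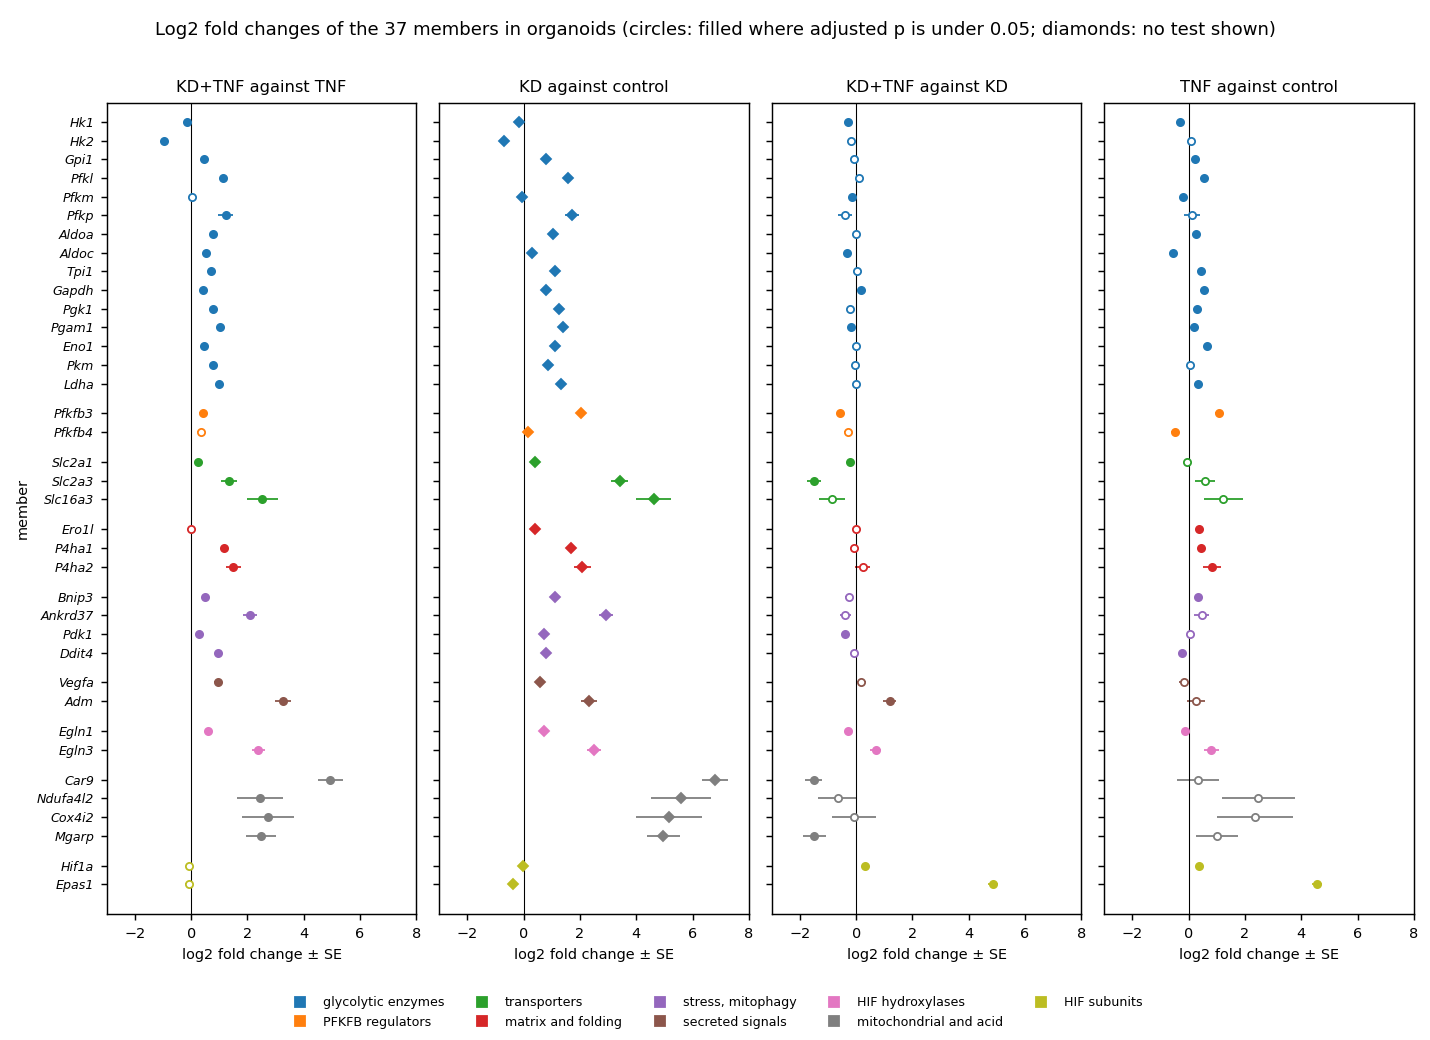
Log2 fold changes with SE of the 37 genes, by role, in knockdown with TNF against TNF, knockdown against control, knockdown with TNF against knockdown, and TNF against control. Filled circles passed an adjusted p under 0.05, open circles did not, and diamonds carry no test. In both knockdown comparisons most points lie right of 0, with Car9 at 4.94 and 6.79, and in both TNF comparisons Epas1 lies far right, at 4.86 and 4.56.

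The interaction compares how TNF acted in knockdown organoids with how it acted without the knockdown, and a negative value means a lower response in the knockdown. It was called for 11 of the 37 genes, all downward, in a comparison in which 12.3% of all genes tested passed. A gene picked because it is high in knockdown or low in control organoids tends to a negative interaction, so this direction is no independent observation. For Pfkfb3 the TNF effect was -0.56, SE 0.13 with the knockdown and 1.07, SE 0.14 without it, a difference of -1.63 (adjusted p = 3.33e-05). Slc2a3 differed by -2.07 (adjusted p = 0.00337), Eno1 by -0.65 (adjusted p = 0.00244) and Gapdh by -0.39 (adjusted p = 0.00124). Pdk1 differed by -0.46 (adjusted p = 0.00819). Gpi1, the glucose-6-phosphate isomerase, had 481, 486 and 448 CPM with knockdown and TNF, 527, 492 and 488 CPM with knockdown, 370.3, 334 and 315 CPM with TNF and 287, 284 and 298 CPM in control organoids, and its interaction was -0.32 (adjusted p = 0.0139). Without TNF replicate 1, 8 were called downward and Aldoc upward (0.26, adjusted p = 0.025). Of all 15888 genes tested, 672 were then called downward and 1147 upward. Without control replicate 2, 7 genes were called. The calls of Bnip3, Pgam1, Pgk1 and Pfkl were those lost in at least 1 such refit.

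**Figure D4:**
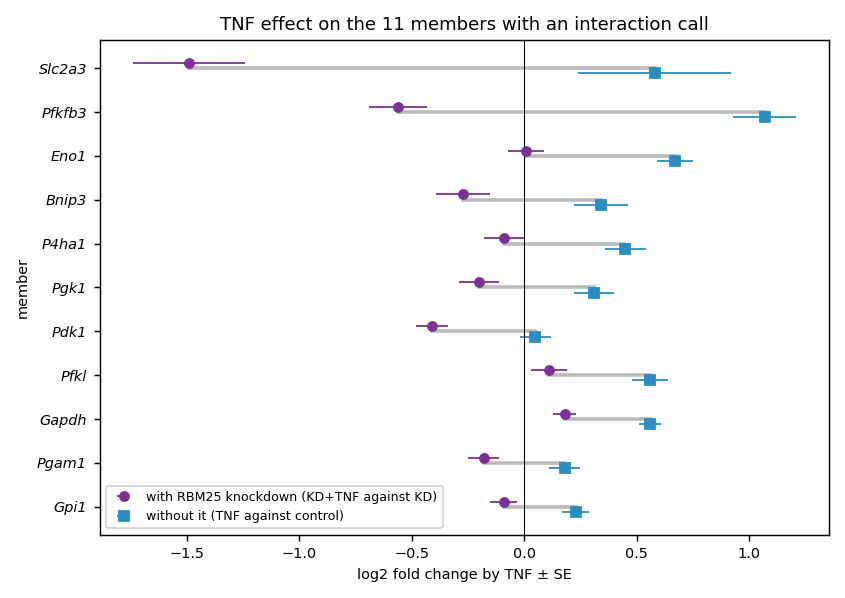
TNF effect as log2 fold change with SE for the 11 genes with an interaction call, in knockdown organoids (circles) and without the knockdown (squares). Every circle lies left of its square, and the widest gaps are those of Slc2a3 and Pfkfb3.

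The glycolytic enzymes and the other HIF targets differed mainly in the size of their fold changes. In knockdown with TNF against TNF, the 15 enzymes had a median log2 fold change of 0.69 and the 15 other targets of 1.50, a difference of -0.81. In knockdown against control organoids the medians were 1.06 and 2.09. Without TNF replicate 1 the medians in the first of these were 0.81 and 2.03. On log2(FPKM + 1), which compresses low genes such as Car9 and Mgarp, the difference shrank to -0.25 and to -0.02. For TNF against control the medians were 0.23 and 0.37, and without TNF replicate 1 they were 0.17 and 0.03, so the order of the lists turned with that library.

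Levels of different genes were compared per transcript length only, in FPKM. Aldoa, the ubiquitous aldolase, was the highest of the 37 genes in every group, at 405 ± 32.3 FPKM with knockdown and TNF, 400.0 ± 25.6 FPKM with knockdown, 228 ± 32.7 FPKM with TNF and 184 ± 2.98 FPKM in control organoids (SD, n = 3). Eno1 came next, at 297 ± 17, 293 ± 30.5, 209 ± 28.3 and 128 ± 4.25 FPKM in the same order of groups. Car9 reached 39.8 ± 4.71 FPKM with knockdown, against 0.341 ± 0.0481 FPKM in control organoids, and so stayed below the abundant enzymes. Among the phosphofructokinases, Pfkl made up 68.8% ± 1.49 of their summed FPKM with knockdown and TNF, 63.9% ± 0.603 with knockdown and 55.3% ± 1.35 with TNF, against 43.0% ± 0.701 in control organoids (SD, n = 3). The muscle type Pfkm had the larger share in control organoids, at 49.3% ± 0.385.

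Other genes of these pathways, taken from lists that do not hold the 37 genes, rose and fell in the same comparisons. Of 32 further hypoxia targets tested, 19 rose and 7 fell in knockdown with TNF against TNF, where 52.3% of all genes passed. In TNF against control 9 rose and 6 fell, where 47.5% of all genes passed, so that this share was that of genes at large. Car12, another carbonic anhydrase, rose with knockdown by 2.00, SE 0.07 on the log2 scale in the presence of TNF (adjusted p = 2.48e-12). With TNF alone it rose by 2.72, SE 0.08 (adjusted p = 2.03e-13). Plod1, a collagen lysyl hydroxylase, rose by 1.17, SE 0.07 in the first comparison (adjusted p = 9.10e-11) and fell by 0.83 with TNF alone (adjusted p = 9.88e-09). The nuclear receptor Rora fell by 0.86 with knockdown in the presence of TNF (adjusted p = 8.82e-11).

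Of 18 further glycolysis genes tested, 7 rose and 5 fell in knockdown with TNF against TNF, where 52.3% of all genes passed. The lactate carrier Slc16a1 rose by 1.76, SE 0.16 (adjusted p = 2.86e-08), and Galm, a hexose mutarotase, and Bpgm, a bisphosphoglycerate mutase, fell by 1.21 and 0.58 (adjusted p = 6.85e-12 and 2.32e-07). Of 14 genes of mitochondrial pyruvate use, 4 rose and 3 fell there. Among them were the kinases Pdk3 (0.52, SE 0.06, adjusted p = 2.03e-06) and Pdk4 (-1.08, SE 0.07, adjusted p = 9.24e-10). Of 12 further HIF regulators, 4 rose and 2 fell, with Arnt2, an alternative partner of the alpha subunits, at 1.04, SE 0.11 (adjusted p = 7.85e-07) and Hif1an, the asparaginyl hydroxylase that inhibits HIF, at -0.25, SE 0.05 (adjusted p = 0.000424). The shares called in the pyruvate and regulator lists were thus near that of all genes.

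In inner ear tissue the question was how these genes change with age. At 20 against 3 months, 5 of the 37 genes rose, 4 fell and 28 did not pass, in a comparison in which 22.7% of all genes tested passed, so the share of the genes called was near that of all genes. At 11 against 3 months 2 rose, where 1.56% of all genes passed. At 20 against 11 months 1 rose and 5 fell, where 15.8% of all genes passed. The median log2 fold change of the 37 genes was 0.02 at 20 against 3 months, against 0.01 for all genes.

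Of the 5 genes that rose with age, 3 encode hydroxylases, of collagen for P4ha1 and P4ha2 and of HIF for Egln3. The other HIF hydroxylase described here, Egln1, did not rise. It had 102, 116, 98.2 and 94.7 CPM at 3 months. At 20 months Egln1 had 100.5, 94.4, 80.2 and 90.2 CPM and did not pass against 3 months. P4ha1 had 44.5, 50.9, 49.1 and 46.1 CPM at 3 months, 58.8, 63.3, 59.2 and 60.4 CPM at 11 months and 85.6, 91.8, 74.3 and 107 CPM at 20 months. The 3 ages did not overlap, and the log2 fold change was 0.91, SE 0.09 at 20 against 3 months (adjusted p = 0.000105) and 0.57, SE 0.09 at 20 against 11 months (adjusted p = 0.00671). P4ha2 had 5.87, 5.68, 6.59 and 6.54 CPM at 3 months, 7.85, 13.4, 13.7 and 9.51 CPM at 11 months and 11.4, 9.64, 12.2 and 14 CPM at 20 months. Here 11-month and 20-month values overlapped, both above 3 months, at 0.85, SE 0.18 against 3 months (adjusted p = 0.0375) and 0.94, SE 0.18 at 20 against 3 months (adjusted p = 0.00352).

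Egln3 had 13.3, 11.6, 13.4 and 13.5 CPM at 3 months, 19.9, 22.9, 25.1 and 21.3 CPM at 11 months and 23.8, 14.1, 27.6 and 22.9 CPM at 20 months. It rose by 0.78, SE 0.16 at 11 against 3 months (adjusted p = 0.0353) and by 0.77, SE 0.16 at 20 against 3 months (adjusted p = 0.00573), and 20-month replicate 2 lay well below the others of its age. Both calls at 11 against 3 months were fragile, since leaving out any 1 library of these ages left at most 1 of them. Hk2 and Ddit4 rose at 20 against 3 months by 0.70, SE 0.19 and 0.57, SE 0.19 (adjusted p = 0.0181 and 0.0463). Neither was kept without 20-month replicate 1 (adjusted p = 0.0538 for Hk2 and 0.13 for Ddit4), and Ddit4 was also not kept without 20-month replicate 3 or without 3-month replicate 1, 2 or 3. In 20-month replicate 1, where Ddit4 was at 82.2 CPM, sums of other markers were also high: 1190.0 CPM for 12 mural cell markers (587 to 661 CPM in the others of its age), 758 CPM for 10 endothelial markers (469 to 509 CPM) and 170.0 CPM for 8 neutrophil markers (14.3 to 60.1 CPM).

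Slc2a3, the glucose transporter of neurons, had 91.8, 84.3, 73.3 and 86.2 CPM at 3 months, 74.9, 87.5, 89.8 and 83.5 CPM at 11 months and 53.8, 59.8, 69.3 and 64.7 CPM at 20 months. The values at 3 and 11 months overlapped and those at 20 months were lower, with log2 fold changes of -0.44, SE 0.09 at 20 against 3 months (adjusted p = 0.00501) and -0.44, SE 0.09 at 20 against 11 months (adjusted p = 0.0114). The platelet-type phosphofructokinase Pfkp had 253, 216, 253 and 211 CPM at 3 months, 210.1, 222, 220.5 and 216 CPM at 11 months and 160.0, 186, 177 and 157 CPM at 20 months. Pfkm had 471, 420.4, 409.5 and 435 CPM at 3 months, 441, 449, 449.6 and 445 CPM at 11 months and 311, 352, 391 and 327 CPM at 20 months. In both, every 20-month value was below every younger one, with -0.46, SE 0.08 and -0.33, SE 0.07 at 20 against 3 months (adjusted p = 0.00166 and 0.00736). Pfkp shares 748 exonic bases with the opposite-strand gene Pitrm1.

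Pkm had 1828, 1659, 1680.0 and 1751 CPM at 3 months, 1782, 1782, 1860.0 and 1933 CPM at 11 months and 1357, 1406, 1693 and 1301 CPM at 20 months. It fell by 0.35 at 20 against 11 months (SE 0.08, adjusted p = 0.0166) and by 0.27 at 20 against 3 months (SE 0.08, adjusted p = 0.0364), where 20-month replicate 3 overlapped the 3-month values. The call at 20 against 3 months was kept without 20-month replicate 3 alone of the 8 libraries, and that at 20 against 11 months was not kept without 11-month replicate 3 or 20-month replicate 4. Bnip3 had 115, 89.8, 112 and 105 CPM at 3 months, 112, 102, 122 and 109.8 CPM at 11 months and 86.9, 96, 102 and 84.7 CPM at 20 months, and fell by 0.27 at 20 against 11 months (SE 0.09, adjusted p = 0.0469), a call kept without 20-month replicate 3 alone of those 8 libraries. Without 20-month replicate 3, 11 of the 37 genes were called at 20 against 11 months.

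**Figure D5:**
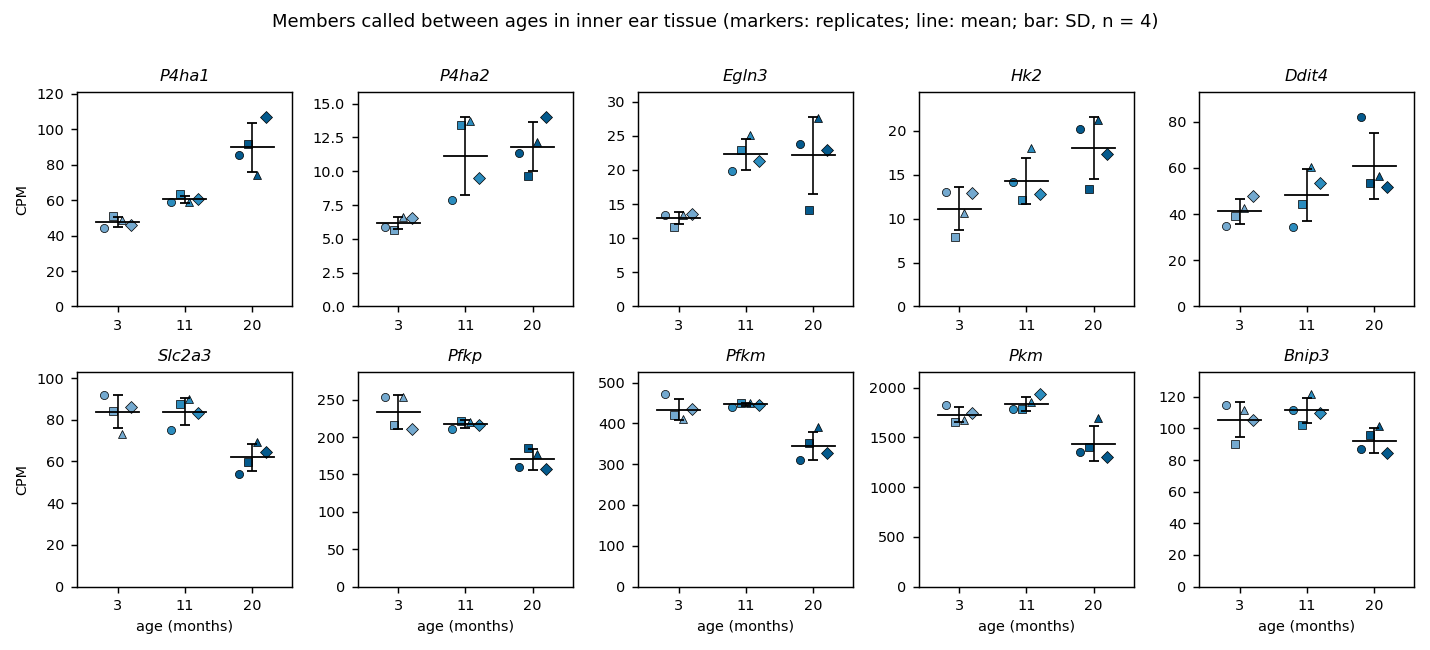
CPM in each inner ear library at 3, 11 and 20 months for the 10 genes called between ages, with means as lines and SD as bars (n = 4 per age). P4ha1 climbs through all 3 ages, P4ha2 and Egln3 are already high at 11 months, and Slc2a3, Pfkp, Pfkm and Pkm are low only at 20 months.

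Several well-known HIF genes did not pass at any age. Hif1a had 107, 141, 136 and 132 CPM at 3 months, 113, 84.1, 97.6 and 117 CPM at 11 months and 135, 142, 109.9 and 122 CPM at 20 months. Epas1 had 107, 161, 132 and 127 CPM at 3 months, 146, 136, 121 and 118 CPM at 11 months and 202, 138, 130.2 and 146 CPM at 20 months. The ages overlapped in both genes, with -0.02, SE 0.12 and 0.22, SE 0.15 at 20 against 3 months (adjusted p = 0.925 and 0.29). Vegfa had 77.6, 86.7, 73 and 77.1 CPM at 3 months, 71.5, 81.7, 64.2 and 87.6 CPM at 11 months and 79.4, 108, 75.6 and 88.5 CPM at 20 months (0.16, SE 0.12, adjusted p = 0.344).

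Slc2a1 had 212, 326, 284 and 216 CPM at 3 months, 251, 218, 221 and 202 CPM at 11 months and 357, 256, 197 and 209.7 CPM at 20 months (-0.02, SE 0.19, adjusted p = 0.939). Ldha had 92, 139.9, 158 and 124 CPM at 3 months, 139.7, 111, 115 and 130.4 CPM at 11 months and 169, 165, 157 and 157 CPM at 20 months (0.33, SE 0.13, adjusted p = 0.0887). Gapdh had 81.3, 78.2, 88.5 and 80.2 CPM at 3 months, 92.2, 78.8, 83.6 and 89 CPM at 11 months and 68.1, 75.8, 86.2 and 78 CPM at 20 months (-0.09, SE 0.08, adjusted p = 0.411). The values at 3 and 20 months overlapped in each of these genes. Car9 had at most 20 counts in any tissue library and 0 in replicate 1 at both 3 and 11 months, so a change in it was not detectable at this depth.

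Sums of cell type markers also moved with age. The sum of 10 neuron markers was 9200.0 to 12000.0 CPM at 3 months, 10300.0 to 11700.0 CPM at 11 months and 6060.0 to 8810.0 CPM at 20 months, and so was lowest at 20 months, as were Slc2a3, Pfkp and Pkm. The sum of 10 macrophage markers was 173 to 252 CPM at 3 months, 356 to 418 CPM at 11 months and 420.0 to 706 CPM at 20 months, and that of 10 skeletal muscle markers 449 to 609, 519 to 574 and 336 to 506 CPM at the same ages. The sum of 8 fibroblast markers, from cells that make collagen, was 7560.0 to 9930.0 CPM at 3 months, 5090.0 to 7530.0 CPM at 11 months and 4970.0 to 7470.0 CPM at 20 months, against the direction of P4ha1 and P4ha2. The sum of 10 brain markers was 284 to 585 CPM at 3 months, 1020.0 to 1220.0 CPM at 11 months and 883, 341, 1580.0 and 1010.0 CPM in the 20-month replicates, so that replicate 2 was lowest and replicate 3 highest at 20 months, as for Egln3 and Hk2. The sum of 8 mucosal markers was 70.7 to 503 CPM at 3 months, 44.7 to 78.3 CPM at 11 months and 46.7 to 1140.0 CPM at 20 months. All of these markers were listed, and the brain marker Gabra6 was at 0 at 3 months, the 1 such case. The part of these shifts in the age results was not tested. Here too, more cells of a type and more RNA per cell cannot be told apart.

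Enzymes and other targets also had different medians in the tissue. At 20 against 3 months the 15 glycolytic enzymes had a median log2 fold change of -0.09, with 1 higher and 3 lower, and the 15 other HIF targets of 0.45, with 4 higher and 0 lower. Each list thus had 4 of 15 called, near the 22.7% of all genes. The difference of -0.54 lay between -0.81 and -0.28 when 1 library was left out. Per transcript length, Hk1 made up 96.6% ± 0.674 of the summed FPKM of Hk1 and Hk2 at 3 months, 96.1% ± 0.709 at 11 months and 94.4% ± 1.08 at 20 months (SD, n = 4), whereas in control organoids Hk2 held 61.0% ± 0.644 (n = 3). Pfkm was the main phosphofructokinase at every age, with 59.7% ± 2.15, 63.6% ± 1.29 and 60.1% ± 3.32 in the order of age.

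Of the lists outside the 37 genes, 5 of 32 further hypoxia targets rose and 4 fell at 20 against 3 months, where 22.7% of all genes passed. The transferrin receptor Tfrc fell by 1.14 on the log2 scale (SE 0.10, adjusted p = 5.65e-05) and already by 0.84 at 11 against 3 months (adjusted p = 0.00365), and Bhlhe40 rose by 0.58, SE 0.12 (adjusted p = 0.00428). Of 14 genes of mitochondrial pyruvate use, 1 rose and 4 fell. Pdk4, which shuts pyruvate dehydrogenase, rose by 0.68, SE 0.11 (adjusted p = 0.00155), and Pdhb and Dlat, subunits of that complex, fell by 0.28 and 0.29 (adjusted p = 0.00657 and 0.00846). Of 23 further glycolysis genes 4 rose and 4 fell, and of 12 further HIF regulators 3 fell, Hif3a by 1.01 (adjusted p = 0.0223). The shares of the hypoxia target and regulator lists were near that of all genes.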

How the data were processed

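RNA from 12 inner ear and 12 organoid libraries was sequenced without strand information, per the labels' protocols. The authors deposited whole-number counts per gene and FPKM values for each library. Trimmomatic, HISAT2, HTSeq and DESeq2 and the build mm10 are named in the submitters' processing notes, with no versions.

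The counts of each table were fitted with edgeR 4.0.16 in R 4.3.3 (TMM scaling, filterByExpr, robust quasi-likelihood F-test), on all libraries of the table with a mean per group. P-values of 8 comparisons were Benjamini-Hochberg adjusted over the 15525 inner ear and 15888 organoid genes tested, with 0.05 as the threshold. SE is the standard error of the log2 fold change. The 37 genes and all lists were chosen with earlier results of these data known. Values were given for the called genes with the smallest p in each comparison, at most 6, and for Hif1a, Epas1, Vegfa, Slc2a1, Car9, Ldha and Gapdh. Pathway genes outside the 37 were at most 3 per list. DESeq2 1.42.0, limma 3.58.1 on log2(FPKM + 1) and log2(FPKM + 0.1), other scaling, no count filter, only the libraries compared, a replicate block and leaving out each library were the alternatives. The fit was tested on simulated counts in which a small part of the genes was changed by known folds. Far fewer genes were changed there than were called between organoid groups, so it does not test the scaling in those comparisons. No column belonged to other samples (0 columns). Near copies and exon overlaps were found in GENCODE vM21 transcripts with BLAST 2.17.0 (95% identity over at least 200 bases). Promoters came from RefSeq. Libraries of a group differed by more than sampling noise, and their number and depth limit the precision.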

Additional observations from a re-analysis of the deposited data

Results flagged for a closer look

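In 4 of 111 groups of 4 inner ear libraries, 1 library stood far from the other 3, and chance gives about 1 in 20. The lowest 3-month library of Egln3 had 11.6 CPM, the highest 20-month library of Ddit4 had 82.2 CPM, the highest 3-month library of Gpi1 had 442 CPM and the highest 3-month library of Eno1 had 663 CPM.

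The TNF effect on 11 genes differed between organoids with and without the knockdown, by edgeR's interaction term at an adjusted p under 0.05. Of all genes tested, 12.3% passed there. With minus without the knockdown, the difference on the log2 scale was -2.07 for Slc2a3, -1.63 for Pfkfb3, -0.65 for Eno1, -0.61 for Bnip3 and -0.54 for P4ha1. It was -0.50 for Pgk1, -0.46 for Pdk1, -0.45 for Pfkl, -0.39 for Gapdh, -0.36 for Pgam1 and -0.32 for Gpi1. These comparisons contain the libraries on which the genes were chosen.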

How the results depend on the processing

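Over 8 comparisons, 132 calls were refitted 1805 times, of which 1660 refits kept the call, 145 lost it and 0 reversed it, and 28 of the calls were lost at least once. Of these, 33 calls and 429 refits, 425 of them kept, came from knockdown against control. The genes were chosen on that contrast, so its part in the totals is no support. The number of genes called at 11 against 3 months was 1 with a replicate block, 0 by limma on log2(FPKM + 1) and 4 from only the libraries compared, against 2. At 20 against 11 months DESeq2 called 10, against 6. With 1 library left out, the number called was 6 to 9 at 20 against 3 months, 0 to 1 at 11 against 3 months and 4 to 11 at 20 against 11 months. It was 16 to 22 for TNF against control, 32 to 33 for knockdown against control, 29 to 33 for knockdown with TNF against TNF, 13 to 16 for knockdown with TNF against knockdown and 7 to 14 for the interaction.

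The median of glycolytic enzymes minus that of other HIF targets, on log2(FPKM + 1), was -0.29 at 20 against 3 months, 0.10 for TNF against control, -0.02 for knockdown against control, -0.25 for knockdown with TNF against TNF and 0.03 for the interaction. On log2(FPKM + 0.1) it was -0.79 for knockdown against control and 0.13 for the interaction. The larger pseudocount compresses low genes. With 1 library left out it lay between -0.81 and -0.28 at 20 against 3 months, -0.28 and 0.03 at 11 against 3 months, and -0.50 and -0.26 at 20 against 11 months. In organoids it lay between -0.24 and 0.13 for TNF against control, -1.14 and -0.90 for knockdown against control, -1.21 and -0.57 for knockdown with TNF against TNF, -0.02 and 0.18 for knockdown with TNF against knockdown, and 0.06 and 0.22 for the interaction. Where these changed direction, the cause was not tested.

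Correlations of deviations between same-numbered libraries were -0.271 to 0.228 in tissue and -0.054 to 0.298 in organoids, and the numbers were not taken to pair the libraries. Between knockdown and control organoids they were 0.298, 0.0237 and 0.233 for numbers 1, 2 and 3, a hint from the data that number 2 does not share. Under the replicate block the calls of P4ha2 at 11 against 3 months and of Ddit4 and Pkm at 20 against 3 months were lost. Size factors in place of TMM moved the median of all genes by at most 0.032.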
